A study of Glycine max with 24 samples.

Results

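Trypsin inhibitors of the Kunitz and Bowman-Birk families were followed through seed fill in soybean. A probeset, the set of short probes that reads a transcript on the array, was included where its gene symbol begins with KTI or BBI, or where its description in the study's additional files names a trypsin inhibitor, Kunitz or Bowman-Birk. The rule found 17 of the 37694 soybean probesets tested, which stand for 13 genes. Of these, 11 were found by symbol and 8 by description, with 2 found by both. The 6 found by description alone were listed by the study because they changed on these same arrays, so their direction is not independent evidence. Only part of those files was readable, with descriptions for 1965 of the probesets tested, so further inhibitor genes may be missing from the set.

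The samples were developing seed of a near-isogenic pair of lines, LoPro (LD04-15146, labelled LoProt) and HiPro (LD04-15154, labelled HiProt). Both derive from the same backcross into a Glycine max parent, and HiPro carries the high protein allele of a locus on linkage group I from Glycine soja. Seed weighed 25 to 50 mg at stage 1, over 50 to 100 mg at stage 2, over 100 to 200 mg at stage 3 and over 200 to 300 mg at stage 4. The stages were harvested at the same time from the same untreated plants in growth chambers, with 3 replicates per line and stage, each a pool of seed from 3 plants. This gave 24 arrays from 6 pools of plants and 1 pair of lines, so the effect of the locus cannot be told apart from any other difference that sets these lines apart. The values are signals on a linear scale, made and scaled per array by MAS5.

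Kunitz inhibitors (KTI) and Bowman-Birk inhibitors (BBI) are small proteins that bind digestive serine proteases and block them. Kunitz proteins act mainly on trypsin, and Bowman-Birk proteins can hold trypsin and chymotrypsin at separate sites. Both accumulate in soybean cotyledons during seed fill beside the storage globulins, and raw soybean meal is heated to inactivate them before it is fed.

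Similar names hide different genes here. KTI3 encodes the main Kunitz inhibitor of the soybean seed, and KTI1 is a related gene whose listed protein description is that of KTI2. KTI-1, KTI-2 and KTI-3, written with a hyphen, are separate entries of the reference. KTI3, KTI-3, BBI-1 and the p20-like gene Glyma08g45590 are each read by 2 probesets. One probeset of KTI3 carries a list of 3 symbols, and that of KTI-1 a list of 2, which the reference resolves to a single gene in each case. The suffix that the maker gives to probesets matching several transcripts is carried by 6 members, so related copies may share their signal.

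A member is said to rise or fall where limma's p, adjusted over all probesets by Benjamini-Hochberg, is under 0.05 and the fold change is at least 1.5. From stage 1 to stage 4 the members found by symbol and those found by description alone went different ways. In HiPro, 7 of the 17 rose and 6 fell, where 10.7% of all probesets rose and 13.5% fell. In LoPro, 2 rose and 6 fell, against 11.3% and 10.4% of all probesets. Each of these rises was of a probeset found by symbol, and the falls were those of the 6 found by description alone. KTI1, BBI-2 and the 6 falling probesets passed in both lines, 5 probesets passed in HiPro alone and 4 passed in neither. The log2 changes of the 17 members had a median of 0.13 in LoPro, beside 0.08 over all probesets, and of 0.51 in HiPro, beside -0.01. The falls passed in each line whichever array or pool was left out, but the study had listed these probesets as changed on these arrays. In whole seed, fewer cells of a type and less transcript per cell cannot be told apart.

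**Figure D1:**
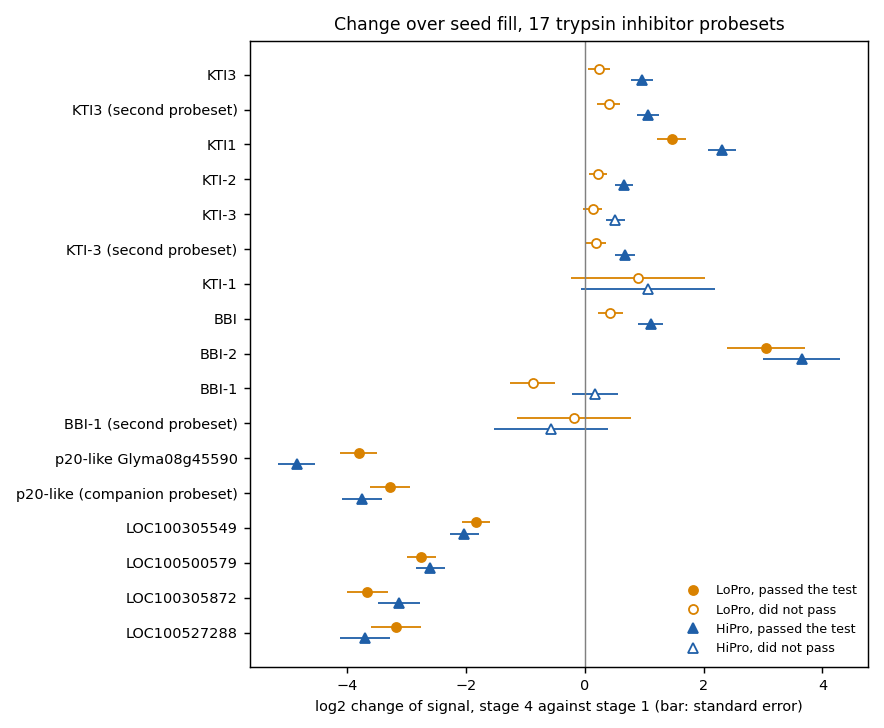
Log2 change of signal from stage 1 to stage 4 (x axis) for each of the 17 probesets (y axis), with LoPro as circles and HiPro as triangles, standard errors as bars, and filled symbols for changes that passed the test. BBI-2 lies farthest to the right (3.05 in LoPro and 3.65 in HiPro) and the p20-like gene farthest to the left (-3.81 and -4.85).

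Some facts of the arrays bear on these counts. Storage globulins, which mark the embryo, rose in 9 of 14 probesets in LoPro and 11 of 14 in HiPro by stage 4. By limma 1 fell in LoPro, a probeset of CG-1 (log2 -2.05, adjusted p = 7.4e-04), and 0 fell in HiPro. The mean log2 signal of the list was already at 10.21 to 12.24 at stage 1. The seed coat genes ANR1, ANS2 and DFR2 of the tannin pathway fell in both lines while the seed coat peroxidase gene Ep rose. The mean log2 signal of these 4 seed coat genes went from between 10.76 and 11.33 at stage 1 to between 7.26 and 7.67 at stage 4. The part of seed coat and embryo in the member changes was not tested. As a sign of RNA quality, the 3′ actin control exceeded the 5′ control by 4.46 to 5.39 on the log2 scale over the arrays. The same measure of the ubiquitin control ranged from 0.87 to 6.09. From stage 1 to stage 4 its means were 4.36, 3.50, 2.63 and 3.58 in LoPro. In HiPro they were 4.76, 4.73, 3.50 and 2.59. The part of RNA quality in the members' changes was not tested. No pair of arrays held identical values.

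KTI1 rose strongly in both lines. In LoPro it read 11689, 11316 and 6041 at stage 1, 16584, 21807 and 12468 at stage 2, 26077, 29804 and 27064 at stage 3 and 26831, 24161 and 25464 at stage 4. In HiPro it read 5419, 7066 and 4755 at stage 1, 15959, 18070 and 12789 at stage 2, 26261, 28906 and 19618 at stage 3 and 26986, 32796 and 25098 at stage 4. Every array of stages 3 and 4 lay above every array of stage 1 in its line, and most of the rise was complete by stage 3. By stage 4 the gain was 2.74-fold in LoPro (log2 1.46, SE 0.24, adjusted p = 9.0e-05) and 4.96-fold in HiPro (log2 2.31, SE 0.24, adjusted p = 3.7e-07). At stage 2 the gain was already 2.73-fold in HiPro (log2 1.45, adjusted p = 0.0037), which was the only rise of a member at that stage, where 0.56% of all probesets rose. Without any single HiPro pool, 0 members rose in this step. In LoPro the same step was 1.78-fold and did not pass (log2 0.83, adjusted p = 0.13), although the arrays of the stages did not overlap. With the pool of plants as a block it passed (adjusted p = 0.016).

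KTI3 behaved differently in the lines on its face. At stage 1 the LoPro arrays held 22850, 17225 and 13913 and the HiPro arrays 10571, 12301 and 14300. At stage 2 the values were 17012, 19435 and 12906 in LoPro and 14387, 17238 and 13464 in HiPro. At stage 3 they were 22097, 25984 and 25325 in LoPro and 22820, 23455 and 17040 in HiPro, and at stage 4 21855, 19517 and 21005 in LoPro and 24507, 26961 and 20526 in HiPro. All HiPro arrays of stage 4 were above those of stage 1, whereas in LoPro stages 1 and 4 overlapped. KTI3 thus rose 1.94-fold in HiPro (log2 0.96, SE 0.19, adjusted p = 5.6e-04), and its change in LoPro was 1.18-fold (log2 0.24, SE 0.19, adjusted p = 0.38). The difference of these changes was 0.72 on the log2 scale (SE 0.27) and did not pass (adjusted p = 0.97, unadjusted p = 0.014).

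The second KTI3 probeset moved with it. In LoPro it read 19649, 14473 and 10840 at stage 1, 14307, 16146 and 11627 at stage 2, 19120, 21252 and 20484 at stage 3 and 21672, 17624 and 18575 at stage 4. In HiPro it read 9729, 10560 and 11940 at stage 1, 12349, 14009 and 11800 at stage 2, 20612, 20893 and 14769 at stage 3 and 21728, 27226 and 18844 at stage 4. Again only HiPro was separated at stage 4, and the rise there was 2.09-fold (log2 1.06, SE 0.19, adjusted p = 2.5e-04), against 1.32-fold in LoPro (log2 0.40, SE 0.19, adjusted p = 0.13). Over the 24 arrays the log2 signals of the KTI3 probesets had a Pearson r of 0.98, and of 0.96 once the group means were taken off. These arrays are shared by both probesets, so the r describes how well the probesets read alike.

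BBI, which encodes the classical Bowman-Birk inhibitor, followed KTI3 closely. In LoPro the signals were 21377, 16822 and 9850 at stage 1, 16362, 18891 and 12484 at stage 2, 21733, 24836 and 24603 at stage 3 and 22190, 19279 and 20317 at stage 4. In HiPro they were 9702, 11425 and 11250 at stage 1, 14318, 17060 and 13571 at stage 2, 22507, 24232 and 17980 at stage 3 and 22913, 27219 and 19938 at stage 4. Replicate 3 of LoPro stage 1 lay with the HiPro arrays of that stage, and the other LoPro replicates lay well above them. BBI rose 2.15-fold in HiPro by stage 4 (log2 1.11, SE 0.21, adjusted p = 4.6e-04). In LoPro the change was 1.35-fold at stage 4 (log2 0.43, SE 0.21, adjusted p = 0.14), and at stage 3 BBI passed narrowly with 1.55-fold (log2 0.64, adjusted p = 0.041). That call was lost without replicate 3 of LoPro stage 1 (log2 0.32, adjusted p = 0.29), under quantile normalization (0.18, adjusted p = 0.34) and by the methods' t-test (adjusted p = 0.33). The residuals of BBI and KTI3 around their group means had an r of 0.92 over the 24 shared arrays.

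KTI-2 and KTI-3 passed in HiPro and in no LoPro comparison with stage 1. The KTI-2 signals in LoPro were 15170, 13348 and 9360 at stage 1, 13323, 13959 and 11375 at stage 2, 17409, 17104 and 16393 at stage 3 and 15316, 13821 and 14106 at stage 4. In HiPro they were 9975, 9093 and 9416 at stage 1, 12639, 13736 and 11729 at stage 2, 18136, 16089 and 14182 at stage 3 and 14929, 16351 and 13663 at stage 4. KTI-2 was highest at stage 3 in both lines, and its stage 1 and stage 4 arrays were apart in HiPro and overlapped in LoPro. It rose 1.57-fold in HiPro by stage 4 (log2 0.66, SE 0.15, adjusted p = 0.0017), against 1.16-fold in LoPro (adjusted p = 0.29).

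The second KTI-3 probeset read 7442, 7933 and 5659 at stage 1, 8068, 9776 and 6746 at stage 2, 10617, 9630 and 7963 at stage 3 and 8786, 7518 and 7384 at stage 4 in LoPro. In HiPro it read 6559, 4518 and 5249 at stage 1, 8705, 8609 and 8137 at stage 2, 12159, 9134 and 8502 at stage 3 and 9180, 8607 and 7932 at stage 4. Its HiPro arrays of every later stage lay above those of stage 1, and the gain by stage 4 was 1.59-fold (log2 0.67, SE 0.17, adjusted p = 0.0047). LoPro changed 1.13-fold (adjusted p = 0.46). The other KTI-3 probeset spanned 5538 to 12127 over all arrays, and its HiPro change of 1.42-fold was below the fold threshold (log2 0.51, SE 0.16, adjusted p = 0.021). The KTI-3 probesets had an r of 0.96 over the 24 arrays.

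**Figure D2:**
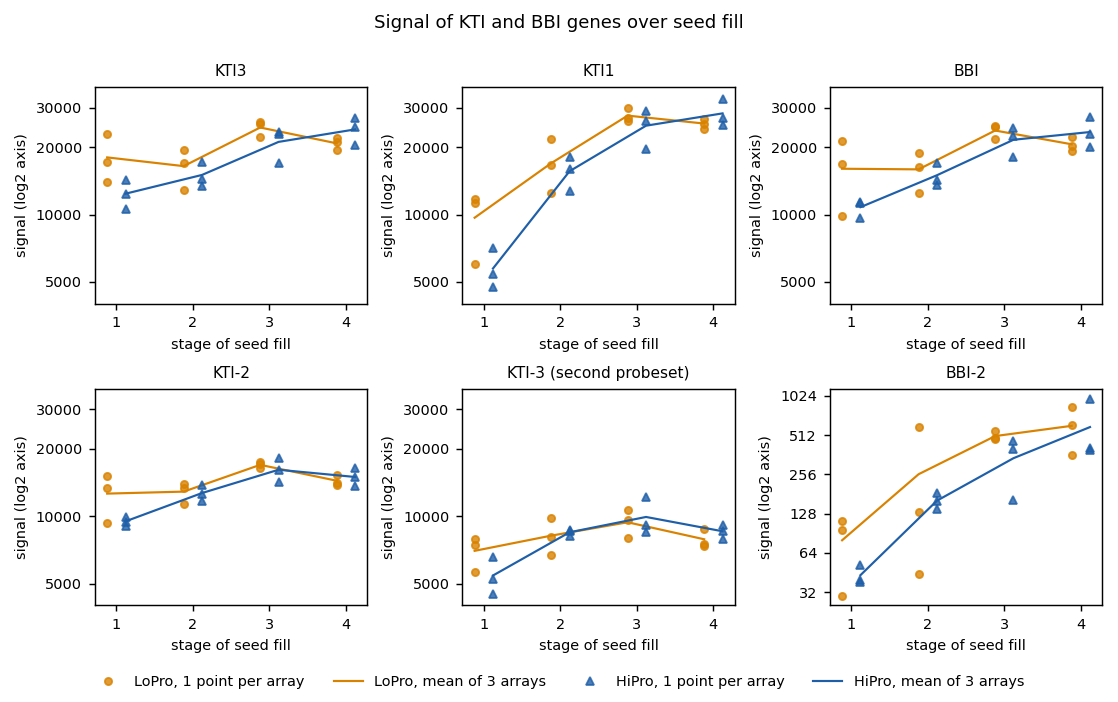
Signal on a log2 axis (y) against stage of seed fill (x) for 6 of the probesets found by symbol, with 1 point per array and lines through the means of 3 arrays, LoPro in orange circles and HiPro in blue triangles. The LoPro arrays of stage 1 are widely spread in KTI3 (13913 to 22850) and BBI (9850 to 21377), and KTI1 and BBI-2 climb in both lines.

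BBI-2, a Bowman-Birk gene with low signal, had the largest fold rise of the 17 members in both lines. LoPro arrays read 113, 96.7 and 30.1 at stage 1, 132, 594 and 43.9 at stage 2, 475, 555 and 483 at stage 3 and 841, 611 and 362 at stage 4. HiPro arrays read 39.6, 51.7 and 38.2 at stage 1, 185, 159 and 139 at stage 2, 458, 403 and 162 at stage 3 and 973, 408 and 392 at stage 4. The stages 1 and 4 did not overlap in either line, and the LoPro arrays of stage 2 spanned most of the range. BBI-2 rose 8.26-fold in LoPro (log2 3.05, SE 0.65, adjusted p = 0.0013) and 12.6-fold in HiPro (log2 3.65, SE 0.65, adjusted p = 2.0e-04). The methods' t-test was run here on the log2 of the deposited signals, with the arrays of each comparison alone. By it the LoPro rises of BBI-2 (adjusted p = 0.076) and KTI1 (adjusted p = 0.069) did not pass. The study, which used RMA values, listed both probesets as rising from stage 1 to stage 4 in both lines.

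BBI-1 lies next to BBI-2 in the Glycine_max_v4.0 annotation, with 0 protein coding genes between them, and did not share its rise. Its main probeset spanned 84.2 to 381 and was highest in replicates 1 and 2 of LoPro stage 1 (302 and 381, against 117 in replicate 3). The change by stage 4 was -0.88 in LoPro (SE 0.38, adjusted p = 0.087) and 0.17 in HiPro (SE 0.38, adjusted p = 0.78) on the log2 scale. With the pool of plants as a block the LoPro value passed as a fall at stage 4 (adjusted p = 0.027) and so did that of stage 3 (log2 -1.01, adjusted p = 0.016, against 0.063 without the block). The second BBI-1 probeset spanned 1.96 to 52.3 and neither of its changes passed (-0.18 in LoPro and -0.57 in HiPro, SE 0.96). BBI-2 and BBI-1 had an r of 0.07 over the arrays and of 0.78 around their group means.

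KTI-1 adjoins KTI3 in the same annotation, also with 0 protein coding genes between them. Its signals, 0.974 to 24.8, straddled the 10th percentile of the whole table (14.5), so no level could be read. The log2 changes of 0.89 in LoPro and 1.06 in HiPro had standard errors of 1.13 and did not pass (adjusted p = 0.6 and 0.53). KTI-1, the main BBI-1 probeset, its second probeset and the other KTI-3 probeset are the 4 members that passed in neither line.

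The 6 probesets found by description alone fell. The largest fall was that of the p20-like gene Glyma08g45590, described as trypsin inhibitor p20, a Kunitz protein. In LoPro it read 2552, 2463 and 3038 at stage 1, 1906, 1005 and 1915 at stage 2, 533, 195 and 303 at stage 3 and 151, 228 and 200 at stage 4. In HiPro it read 3591, 4245 and 2789 at stage 1, 1658, 1557 and 1645 at stage 2, 393, 331 and 632 at stage 3 and 91.9, 127 and 153 at stage 4. Every later stage lay below stage 1 with no overlap in both lines. By stage 4 the signal was 14.1-fold lower in LoPro (log2 -3.81, SE 0.31, adjusted p = 4.0e-08) and 28.8-fold lower in HiPro (log2 -4.85, SE 0.31, adjusted p = 4.1e-09).

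Its companion probeset gave the same picture at lower signal. LoPro arrays read 1050, 773 and 1276 at stage 1, 602, 428 and 615 at stage 2, 211, 89.5 and 104 at stage 3 and 86.7, 106 and 122 at stage 4. HiPro arrays read 1364, 984 and 1082 at stage 1, 390, 353 and 646 at stage 2, 155, 122 and 196 at stage 3 and 72.4, 138 and 59.1 at stage 4. Stage 1 was apart from all later stages in both lines. The signal fell 9.74-fold in LoPro (log2 -3.28, SE 0.33, adjusted p = 3.4e-07) and 13.5-fold in HiPro (log2 -3.75, SE 0.33, adjusted p = 5.8e-08). Without a block it was the only member to fall by stage 2 in HiPro (2.54-fold, adjusted p = 0.047), where 0.456% of all probesets fell. That call was lost without any of 14 single arrays, and with the pool of plants as a block the main probeset, p20-like Glyma08g45590, passed as well (log2 -1.11, adjusted p = 0.044).

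LOC100305549, also described as p20 and separated from KTI-1 by 2 protein coding genes, was within 1.04-fold of its stage 1 level at stage 2 in both lines and fell by stage 3. LoPro signals were 411, 421 and 372 at stage 1, 437, 264 and 494 at stage 2, 193, 178 and 173 at stage 3 and 126, 87.8 and 129 at stage 4. HiPro signals were 262, 513 and 429 at stage 1, 433, 452 and 334 at stage 2, 179, 208 and 228 at stage 3 and 114, 97.6 and 75.9 at stage 4. Stages 1 and 2 overlapped in both lines, while stages 3 and 4 were each apart from stage 1. The fall by stage 4 was 3.56-fold in LoPro (log2 -1.83, SE 0.24, adjusted p = 9.6e-06) and 4.08-fold in HiPro (log2 -2.03, SE 0.24, adjusted p = 2.3e-06).

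LOC100500579, described as a Kunitz trypsin inhibitor precursor, fell by stage 3 in both lines. In LoPro it read 443, 420 and 513 at stage 1, 244, 178 and 309 at stage 2, 98.2, 83.5 and 93.7 at stage 3 and 60.0, 65.3 and 80.0 at stage 4. In HiPro it read 556, 504 and 467 at stage 1, 261, 304 and 312 at stage 2, 114, 60.3 and 82.6 at stage 3 and 69.8, 128 and 65.9 at stage 4. The stages 1 and 2 were apart in both lines, though the step did not pass (adjusted p = 0.11 in LoPro and 0.12 in HiPro), and HiPro stages 3 and 4 overlapped. By stage 4 it was 6.72-fold lower in LoPro (log2 -2.75, SE 0.25, adjusted p = 1.2e-07) and 6.06-fold lower in HiPro (log2 -2.60, SE 0.25, adjusted p = 1.7e-07). It lies 11 protein coding genes from KTI1, which rose.

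LOC100527288 matches a Kunitz inhibitor of Medicago truncatula, ST1-like, and lies 7 protein coding genes from KTI-3. LoPro arrays read 343, 360 and 404 at stage 1, 155, 91.9 and 238 at stage 2, 68.6, 43.5 and 53.3 at stage 3 and 49.5, 30.7 and 44.3 at stage 4. HiPro arrays read 622, 308 and 423 at stage 1, 246, 236 and 157 at stage 2, 102, 28.2 and 99.2 at stage 3 and 44.0, 22.4 and 37.4 at stage 4. All later stages lay below stage 1. The fall by stage 4 was 9.05-fold in LoPro (log2 -3.18, SE 0.42, adjusted p = 1.1e-05), and the log2 change in HiPro was -3.70 (SE 0.42, adjusted p = 1.4e-06).

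LOC100305872 is described after a subtilisin inhibitor of Canavalia lineata, and it belongs here only through another species' hit that names Kunitz. In LoPro it read 1494, 1264 and 1721 at stage 1, 1216, 632 and 1525 at stage 2, 624, 301 and 371 at stage 3 and 72.6, 121 and 181 at stage 4. In HiPro it read 1696, 784 and 1590 at stage 1, 1219, 1254 and 1035 at stage 2, 555, 508 and 736 at stage 3 and 120, 153 and 170 at stage 4. Stages 1 and 2 overlapped, and the signals of stage 4 lay below those of stage 3 in both lines. The fall over the whole span was 12.7-fold in LoPro (log2 -3.66, SE 0.35, adjusted p = 2.0e-07) and 8.78-fold in HiPro (log2 -3.13, SE 0.35, adjusted p = 9.2e-07).

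**Figure D3:**
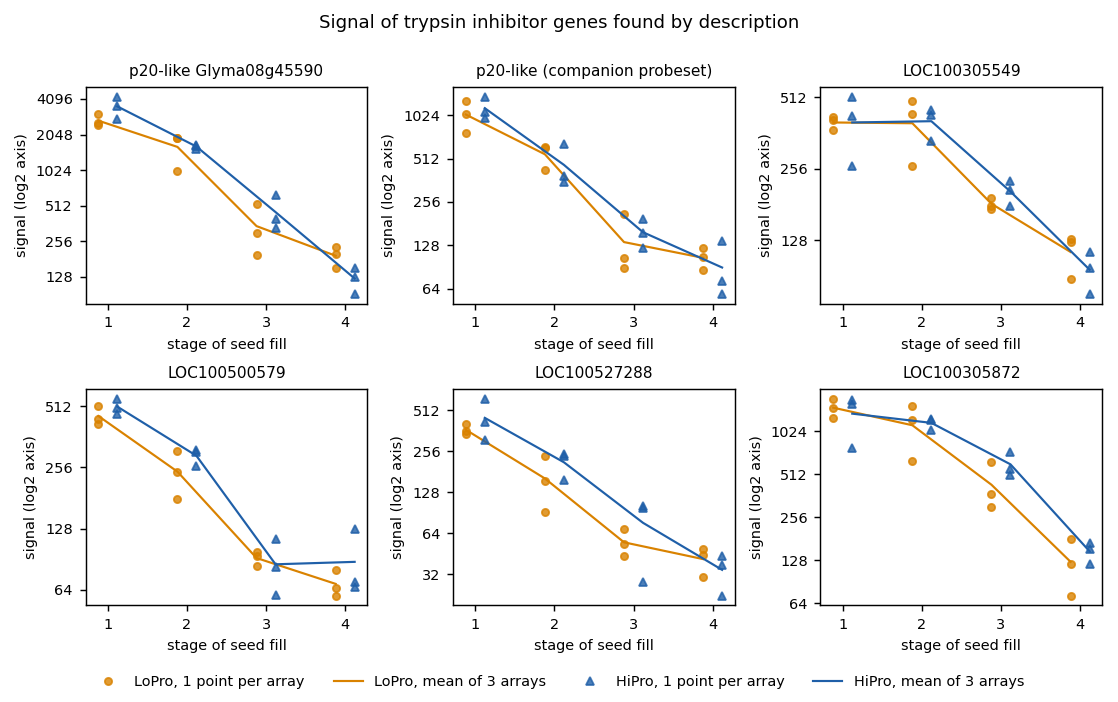
Signal on a log2 axis (y) against stage of seed fill (x) for the 6 probesets found by description alone, with 1 point per array and lines through the means of 3 arrays, LoPro in orange circles and HiPro in blue triangles. All 6 end lower than they began in both lines, and the stage 1 and stage 2 arrays of LOC100305549 and LOC100305872 overlap in each line.

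Between these end points, most members had moved by stage 3. At that stage 8 members rose and 6 fell in HiPro, beside 5.96% and 7.92% of all probesets, and 3 rose and 6 fell in LoPro, beside 7.49% and 7.32%. The 8 HiPro rises were those of stage 4 and the other KTI-3 probeset (1.60-fold, adjusted p = 0.0057), and the LoPro rises were KTI1, BBI and BBI-2. At stage 2 no LoPro member rose or fell by limma, beside 0.305% of all probesets rising and 0.127% falling. An unadjusted p under 0.05 was reached by 6 members, and the share of all probesets at that level was not counted. The methods' t-test called none of the members at stage 2 in either line. Over all 37694 probesets it called 1 rise and 0 falls in LoPro, and 8 rises and 6 falls in HiPro. Its lack of calls at stage 2 is thus not particular to the members. With the pool of plants as a block, 1 LoPro and 3 HiPro members rose and 2 HiPro members fell at stage 2. The block also raised the calls over all 37694 probesets. In LoPro 301 rose and 147 fell with it, against 115 and 48 without it. In HiPro 457 rose and 488 fell with it, against 211 and 172 without it.

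From stage 3 to stage 4 no member rose in either line, beside 0.0345% of all probesets in LoPro and 0.0133% in HiPro. LOC100305872 fell 3.52-fold in LoPro (adjusted p = 0.036) and 4.05-fold in HiPro (adjusted p = 0.0098). In HiPro the p20-like gene (3.59-fold, adjusted p = 0.0089) and LOC100305549 (2.16-fold, adjusted p = 0.04) fell as well. That made 1 fall in LoPro and 3 in HiPro, beside 0.135% and 0.499% of all probesets. The LoPro fall and the HiPro falls were lost by the methods' t-test. Without replicate 3 of HiPro stage 3, none of the HiPro falls passed.

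The rises of the members with the highest signals depended on how the arrays were scaled. These signals lie at the top of each array, where KTI3 reached 71.0% to 83.6% of the highest soybean signal. The signal at the 99.9th percentile of the array itself also went up from stage 1 to stage 4, with log2 changes of 0.38 in LoPro and 0.95 in HiPro. In HiPro it lay between 10810 and 13101 at stage 1 and between 20318 and 26010 at stage 4. The percentile is set by the brightest transcripts themselves. In replicate 1 of HiPro stage 4 it was 22151, and KTI3 read 24507. Neither this percentile nor quantile normalization can therefore tell a joint rise of the brightest transcripts from a shift in scale. Quantile normalization gives every array the same distribution. Under it the HiPro rises by stage 4 were 2 of 17 in place of 7, with 6 falls as before. Over all 37694 probesets, 4583 rose and 4463 fell in HiPro by stage 4 under this setting. KTI3 then changed by 0.02 (SE 0.07, adjusted p = 0.86), BBI by 0.18 (SE 0.12, adjusted p = 0.26) and KTI-2 by -0.11 (SE 0.12, adjusted p = 0.53) on the log2 scale. KTI1 (1.78, adjusted p = 7.0e-07) and BBI-2 (3.72, adjusted p = 1.3e-04) kept their rise.

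The falling probesets were hardly touched by the scaling. Under quantile normalization their HiPro changes by stage 4 lay between -4.89 and -1.91. Centring each array on its median moved the median HiPro change of all probesets from -0.01 to 0.12 on the log2 scale. With it 8 members rose and 6 fell in HiPro by stage 4. Over all 37694 probesets, 5531 rose and 3988 fell in that comparison. The saturation of the brightest signals could not be checked, since the values carry no flags for it.

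**Figure D4:**
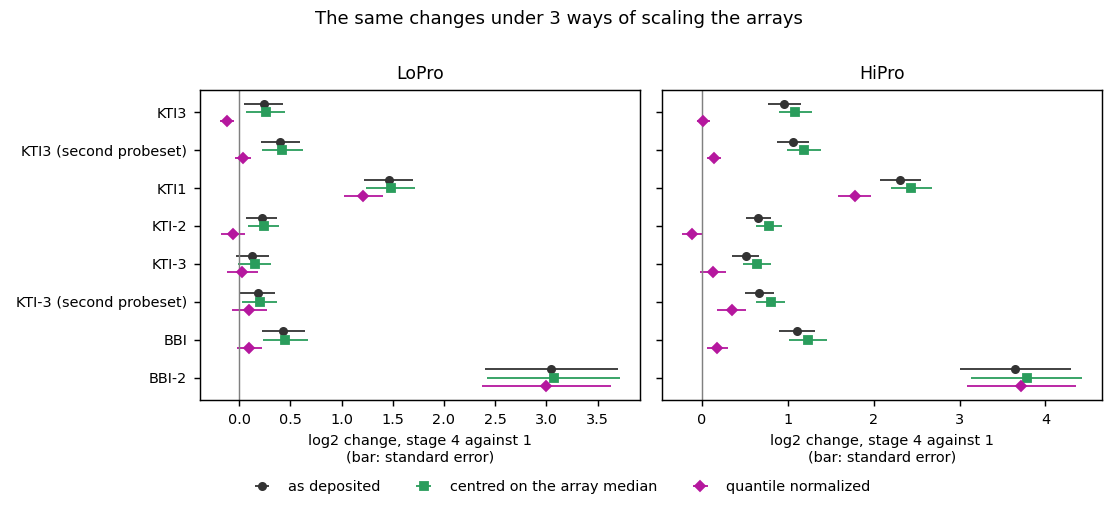
Log2 change from stage 1 to stage 4 (x axis, bars for standard errors) of the 8 probesets of KTI3, KTI1, KTI-2, KTI-3, BBI and BBI-2 (y axis) in LoPro and HiPro, for signals as deposited, centred on the array median and quantile normalized. The HiPro rise of KTI3 goes from 0.96 to 0.02 under quantile normalization, while BBI-2 stays at 3.65 to 3.78.

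No member passed as different between the lines with all arrays in the fit. Over the mean of the 4 stages the HiPro minus LoPro differences ran from -0.48 to 0.20 on the log2 scale, and by limma 0 of 17 passed, with 0 at an unadjusted p under 0.05, beside 0.0982% of all probesets. At stage 1 alone 0 passed, beside 0.0159% of all probesets, but 7 had an unadjusted p under 0.05, all lower in HiPro. These included KTI1 (-0.71, SE 0.24), KTI3 (-0.52, SE 0.19) and BBI (-0.50, SE 0.21) on the log2 scale. The arrays of the lines overlapped in each. At that stage the signal at the 99.9th percentile of the array lay between 12979 and 19950 in LoPro. In HiPro it lay between 10810 and 13101. The part of array scale in these differences between the lines was not tested. Both KTI3 probesets are among the 7, and they and BBI vary together on the same arrays. The KTI3 probesets and BBI are thus not separate signs of a difference. Of the others of the 7, only KTI1 was set against KTI3 in this way (r of 0.76 around the group means). At stages 2, 3 and 4 none passed either, with 0, 0 and 1 at an unadjusted p under 0.05, beside 0.0133%, 0.0345% and 0.061% of all probesets. For no member did the difference between the lines in the change by stage 4 pass by limma (adjusted p of 0.97 or more), with 6 at an unadjusted p under 0.05. This test called 0% of all probesets, so its lack of calls is not particular to the members. The shares given here are of probesets that passed. The share of all probesets at an unadjusted p under 0.05 was not counted, so those counts of members have no background beside them. The methods' t-test also called none between the lines.

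The LoPro arrays of stage 1 were widely spread, and leaving out single ones moved the results in both directions. Among the 8 probesets of KTI3, KTI1, KTI-2, KTI-3, BBI and BBI-2, replicate 3 of LoPro stage 1 was the lowest of its group in 8, and replicate 1 the highest in 7. The storage globulins had the same order, with a mean log2 signal of 12.24 in replicate 1, 11.66 in replicate 2 and 10.21 in replicate 3, against 10.35 to 10.57 in HiPro. Without replicate 1 of LoPro stage 1, LoPro had 4 rises by stage 4 in place of 2, adding the second KTI3 probeset (log2 0.62, adjusted p = 0.022) and BBI (log2 0.68, adjusted p = 0.023). By stage 3 it had 6 in place of 3, and 5 without the whole LoPro pool 1. Without the whole LoPro pool 3, 2 members were lower in HiPro at stage 1. Without replicate 3 of LoPro stage 1 alone, the KTI1 difference at that stage went from -0.71 to -1.02 and did not pass by limma (adjusted p = 0.058).

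The order in the other groups varied. Replicate 3 was the lowest array in 8 of the 8 probesets at LoPro stage 2, in 8 at HiPro stages 2 and 3 and in 7 at HiPro stage 4. At LoPro stage 3 replicate 1 was the lowest in 5 and replicate 3 in 3, at LoPro stage 4 replicate 2 in 6 and replicate 3 in 2, and at HiPro stage 1 no replicate was the lowest in more than 3. At LoPro stage 2 the same array was the highest in all 6 falling probesets. At HiPro stage 3 replicate 3 also had the highest seed coat signal, 9.22 as the mean log2 of the list against 7.93 and 7.89. The part of the seed coat in this order was not tested.

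Other genes of the protease system gave a frame for these changes. The other inhibitors and the proteases were taken from the study's own files of changed genes, so their counts are not independent evidence. Of 9 other protease inhibitor probesets, 5 rose and 3 fell in LoPro and 6 rose and 3 fell in HiPro by stage 4, with medians of 1.24 and 0.92. Cystatins, which inhibit cysteine proteases, stood at both ends. A cystatin similar to that of apple rose, with log2 changes of 2.56 in LoPro and 4.51 in HiPro, and the cystatin LOC100801232 fell, with -3.68 and -3.73. A multicystatin, a protein with several cystatin units, fell as well, to signals near the 10th percentile of the table. With lower signals set to that percentile the log2 changes of its probesets were -2.27 and -3.25 for LoPro, with -2.13 and -2.60 for HiPro.

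Of 12 protease probesets, 11 fell in each line and none rose, with a median of -1.46 in both. The serine carboxypeptidase LOC100804815 fell (-3.41 in LoPro and -3.54 in HiPro), as did the cysteine proteinase LOC100499797 (-2.31 and -2.63). The subtilisin-like and cucumisin-like serine proteases had smaller falls, from -1.28 to -0.84 in LoPro. The 14 probesets of storage globulins had medians of 0.83 and 1.32, and a probeset of the beta-conglycinin gene CG-BETA-1 rose as well, with log2 changes of 5.17 (LoPro) and 7.57 (HiPro). Its other probeset rose too, but from a HiPro stage 1 mean of 13.6, under the 10th percentile of the table, so no size is given.

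**Figure D5:**
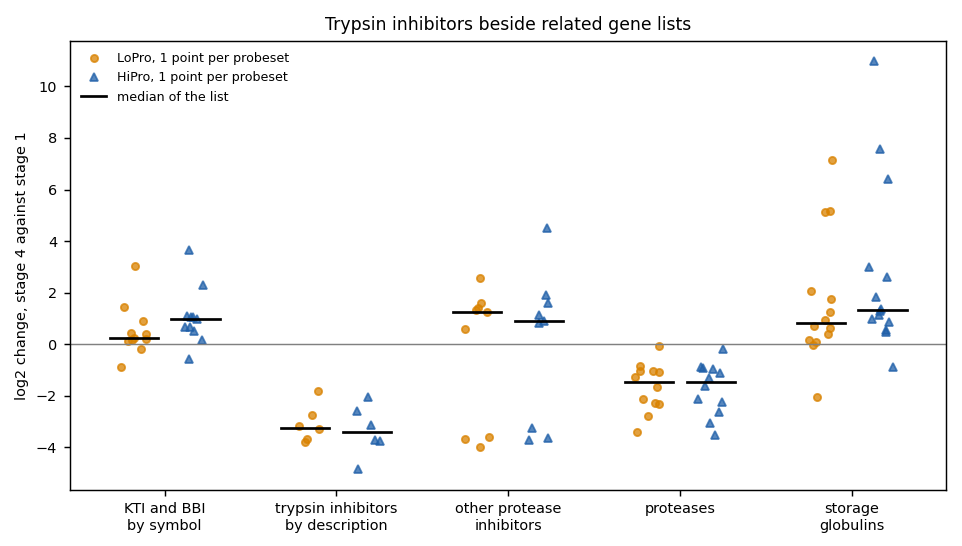
Log2 change from stage 1 to stage 4 (y axis) of single probesets in LoPro (orange circles) and HiPro (blue triangles). The x axis holds the trypsin inhibitors found by symbol, those found by description alone and 3 related lists, with each median as a black bar. Medians in LoPro and HiPro were -3.23 and -3.42 for those found by description alone and -1.46 and -1.46 for the proteases. Both sets came from the study's files of changed genes, so their shared direction is not independent evidence. Those found by symbol had 0.24 and 0.96, and the storage globulins 0.83 and 1.32.

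Among 8664 other probesets with exactly 1 gene symbol, the pattern most like that of KTI1 over the 24 arrays was that of LOC100305847 (Pearson r of 0.990). LOC547942 (0.989), SBP2 (0.989), a sucrose-binding protein of the seed, LOX3 (0.982), a seed lipoxygenase, and LOC100306653 (0.981) came next. For the p20-like gene the closest were LOC100781497 and LOC547740 (both 0.978), LOC100306696 and LOC100798112 (both 0.975) and LOC100796830 (0.974). The arrays fall into stages, so any pair of genes with a steady course through seed fill has a high r.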

How the data were processed

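The authors deposited 1 table of MAS5 signal intensity for 24 Affymetrix Soy GeneChips, scaled per array on a linear scale; the labels give no version of the tool. The study's methods used RMA for its own results, which were not used here. After 69 control probesets were left out of 37763, the log2 signals, with no pseudocount, entered a limma model (version 3.58.1, R 4.3.3) with 1 mean for each of the 8 groups, a trended eBayes, 16 residual degrees of freedom and Benjamini-Hochberg adjustment over 37694 probesets. The fit was tested on simulated data. Arrays give no counts; 3 per group limit the precision. All 17 members are named; those passing from stage 1 to stage 4 in either line, and the 4 brightest, are given array by array, and the rest by range. Likeness was taken for the brightest member that rose, and that fell, in both lines. From the related lists, up to 3 called probesets per direction are named. The members and lists were chosen with earlier results of these data known. A list of further Kunitz genes by reference description could not be formed, and no oleosin, lectin or leghemoglobin symbol was matched. The pool of plants pairs the stages within a line by the methods; array residuals of 1 pool had a mean r of 0.10, against -0.04 for unrelated arrays. Alternatives were quantile normalization, median centring, a floor at the 10th percentile, leaving out the lowest 30% (11308 probesets), an untrended eBayes, the methods' t-test, replicate blocks, a fold of 2, and leaving out arrays, pools or the member found through another species. Tables were made with Python 3.11.15.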

Additional observations from a re-analysis of the deposited data

Results flagged for a closer look

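KTI3 was marked because the pools of the lines moved in opposite directions from stage 3 to stage 4. Its mean log2 change over pools was -0.23 in LoPro, lower at stage 4 in 3 of 3 pools, and 0.19 in HiPro, higher in 3 of 3 pools. Neither step passed by limma in its own line, and no test was run on how the lines differ there. The second KTI3 probeset had means of -0.08 in LoPro, where 1 of 3 pools was higher, and 0.27 in HiPro. The 99.9th percentile of the arrays changed by -0.13 in LoPro and 0.17 in HiPro over the same step, and relative to it the KTI3 changes were -0.11 and 0.02. KTI3 is itself among the bright signals that set this percentile.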

How the results depend on the processing

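Of the counts of members, 1029 of those recomputed stayed within 1.5 times the value given and 79 did not. The 1029 include counts that stayed at 0 whichever array or pool was left out. Among these are the rises from stage 3 to 4 and the differences between the lines at stages 2, 3 and 4. The total is thus no measure of how steady the other counts are. Under quantile normalization 2 members rose in HiPro at stage 3 and 2 at stage 4, and 1 rose in LoPro at stage 2. Over all probesets, 4583 rose in HiPro at stage 4 and 141 in LoPro at stage 2 under it. Median centring gave 2 rises and 0 falls in HiPro at stage 2, the floor 0 falls there and 0 falls in LoPro from stage 3 to 4, the untrended eBayes 0 and 0 for the same falls, and leaving out the lowest 30% 2 rises in HiPro at stage 2. The methods' t-test, run on each comparison's own arrays, gave 0 rises and 3 falls in LoPro at stage 3, 0 rises at stage 4 and 0 falls from stage 3 to 4. In HiPro it gave 0 rises and 0 falls at stage 2, where over all probesets it called 8 rises and 6 falls. It gave 1 rise and 3 falls in HiPro at stage 3 and 0 falls from stage 3 to 4. A fold of at least 2 left 2 HiPro rises at stage 3 and 4 at stage 4. Leaving out the member found through another species left 0 falls in LoPro from stage 3 to 4. Where the cause is not given it was not tested.

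The replicate block, by plant pool or by replicate number, gave 1 rise in LoPro at stage 2. In HiPro it gave 3 rises and 2 falls at stage 2. Over all probesets, the block by plant pool called 301 rises and 147 falls in LoPro at stage 2. In HiPro it called 457 rises and 488 falls at that stage. The replicate block also called the fall of BBI-1 in LoPro at stage 3, as quantile normalization did (adjusted p = 0.049), and at stage 4.

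Leaving out single arrays or pools gave, in LoPro, 0 to 1 rises and 0 to 1 falls at stage 2, 2 to 6 rises at stage 3, 2 to 4 rises at stage 4 and 0 to 1 falls from stage 3 to 4. In HiPro it gave 0 to 3 rises and 0 to 2 falls at stage 2, 3 to 8 rises at stage 3 and 0 to 3 falls from stage 3 to 4. Without HiPro pool 1, 2 or 3 the rises at stage 3 were 3, 4 and 8. At LoPro stage 2, the 1 rise and 1 fall came without replicate 3 of that stage. The LoPro fall from stage 3 to 4 was lost without any of 7 arrays (LoPro stage 3 replicates 1 and 3, LoPro stage 4 replicates 1 and 2, HiPro stage 1 replicate 3 and HiPro stage 2 replicates 1 and 2) or 5 pools (all but LoPro pool 3). In HiPro at stage 2, rises were 2 without LoPro stage 1 replicate 3, LoPro stage 2 replicate 3, HiPro stage 1 replicate 1 or HiPro stage 3 replicate 1, 3 without LoPro pool 3 and 0 without any HiPro pool, and the fall was lost without any of 14 arrays. The HiPro falls from stage 3 to 4 were lost without HiPro stage 3 replicate 3 or any HiPro pool. From 0 to 2 members were lower in HiPro at stage 1.

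Signs turned in 21 of the recomputed changes of single members by stage 4; of the values that turned, only those of KTI-2 and the second KTI-3 probeset in HiPro had passed. HiPro KTI-2 went to -0.11 under quantile normalization. Relative to the 99.9th percentile, chosen after seeing the data, HiPro KTI-2 was at -0.29, KTI-3 at -0.44 and -0.28 and BBI-1 at -0.78. LoPro KTI3 went to -0.12 under quantile normalization and -0.14 relative to that percentile, KTI-2 to -0.06 and -0.16, and the KTI-3 probesets to -0.25 and -0.20 relative to it. With the floor HiPro KTI-1 was at -0.02 and the second BBI-1 probeset at 0.07. Without single arrays or pools, LoPro KTI-3 reached from -0.03 to 0.25, the second BBI-1 probeset from -0.67 to 0.15 in LoPro and from -1.42 to 0.44 in HiPro, and BBI-1 in HiPro from -0.17 to 0.40.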
